A study of Bos taurus with 14 samples.

Results

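The miR-26 family of cattle is described here in peripheral white blood cells (PWBC) that were taken from beef heifers when they were weaned. Its members were taken by mature name, bta-miR-26a, bta-miR-26b and bta-miR-26c, and the family was selected on its high read counts in these libraries, so its level is given as a description and was not tested. These are 3 of the 1030 mature names in the deposited count table, of which 614 had a count in at least 1 heifer. Blood was drawn from Angus-Simmental crossbred heifers immediately after weaning, and each heifer gave 1 small RNA library. The fertile group (FH, n = 7) later became pregnant to artificial insemination (AI), and the subfertile group (SFH, n = 7) was not pregnant after AI and natural service. The sources name no treatment, allele or strain that differed between the groups. The groups were named from the later pregnancy outcome, and the heifers were chosen from a larger herd so that age and weight were alike in both groups. PWBC are a mixture of cell types, and a miRNA present in fewer cells cannot be told apart from one present at a lower level per cell.

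A miRNA is a short RNA that guides Argonaute proteins to messenger RNAs carrying a match to its seed, the stretch near its 5′ end, and lowers their stability and translation. miR-26a and miR-26b share their seed and differ by few bases elsewhere, and they are known to repress *EZH2*, which encodes the histone methyltransferase of Polycomb repressive complex 2, and *LIN28B*, whose protein blocks the maturation of let-7 miRNAs. Their precursors lie inside genes of small C-terminal domain phosphatases, which act on RNA polymerase II and restrain the G1 to S transition. The mature sequences are not printed, since none of the sources used here holds them.

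The annotation places the family at 3 host genes. In RefSeq's annotation of the cattle assembly ARS-UCD2.0, *MIR26A-1* overlaps *CTDSPL* on chromosome 22, *MIR26A-2* overlaps *CTDSP2* on chromosome 5 and *MIR26B* overlaps *CTDSP1* on chromosome 2. The files were made on ARS-UCD1.2, so no coordinates are given. *MIR26C* is annotated over the same interval as *MIR26A-1*, start and end included, and also lies within *CTDSPL*. All 4 precursor genes were found in RefSeq by symbol.

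bta-miR-26c was not detected. Its count was 0 in all 14 heifers, of 43043889 counts on mature miRNAs in all. A count of 0 allows up to 3 counts, which correspond to 0.549 CPM (the count scaled to a library of 1000000) in the deepest library and 1.71 CPM in the shallowest. Against that limit of 3 counts per library, bta-miR-26a was at least 61466-fold higher in every heifer. This limit, and the intervals of shares given below, cover counting error only, since no removal of PCR copies is described. The name bta-miR-26c was thus 1 of 416 mature names without a count, and the members measured in these cells were bta-miR-26a and bta-miR-26b. The strand of *MIR26C* was not compared with that of *MIR26A-1*. Whether bta-miR-26c carries the seed of the other members was not checked, so its count of 0 is given for the name only.

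bta-miR-26a is listed 2 times in the count table, bta-miR-26b and bta-miR-26c 1 time each. Its 2 entries, which stand for its 2 precursors and do not name them, held nearly the same reads. The entry with the lower count fell short of the other by 769 counts in FH heifer 20 and by 4223 counts in FH heifer 27, the smallest and the largest gaps. As a share of the higher entry, the gap was 0.353% to 0.848% (median 0.474%) in FH and 0.465% to 0.605% (median 0.519%) in SFH. Over all heifers it was 0.549%, compared with a median of 2.93% over the 38 mature names that had several entries with counts and at least 1400 counts on the highest, and 10 of these names had a smaller gap. Reads that match both precursors are counted on both entries, so the table does not say how much bta-miR-26a came from *CTDSPL* and how much from *CTDSP2*. The higher entry was used below and the entries were not added.

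bta-miR-26a took 10.5 ± 0.932% of the mature miRNA counts of a heifer (SD, n = 14). In FH its share ranged from 8.49% in heifer 25 (95% Wilson interval 8.46% to 8.51%) to 11.9% in heifer 27 (11.8% to 11.9%), with a median of 10.8%. In SFH it ranged from 9.57% in heifer 17 (9.53% to 9.61%) to 11.9% in heifer 30 (11.91% to 11.97%), with a median of 10.6%. The groups overlapped over most of this range, with 1 FH heifer below and 1 SFH heifer above every heifer of the other group. The FH mean was 10.4 ± 1.12% and the SFH mean was 10.6 ± 0.780% (SD, 7 heifers each).

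bta-miR-26b took 4.30 ± 0.622% (SD, n = 14) and was the less abundant paralogue in every heifer. Its share in FH ranged from 3.45% in heifer 25 (95% Wilson interval 3.44% to 3.47%) to 5.77% in heifer 29 (5.75% to 5.79%), with a median of 4.21%. In SFH it ranged from 3.62% in heifer 21 (3.595% to 3.640%) to 4.64% in heifer 28 (4.62% to 4.67%), with a median of 4.18%. The medians were close, but the FH group extended farther, with 3 heifers above the SFH maximum and 1 below the SFH minimum. The FH mean was 4.45 ± 0.792% and the SFH mean was 4.15 ± 0.398% (SD, 7 heifers each). Together, the paralogues made up 11.9% of the counts in FH heifer 25 and 16.7% in FH heifer 29, the ends of the range over the 14 heifers, and their FH and SFH means were 14.9 ± 1.69% and 14.8 ± 1.14% (SD, 7 heifers each).

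**Figure D1:**
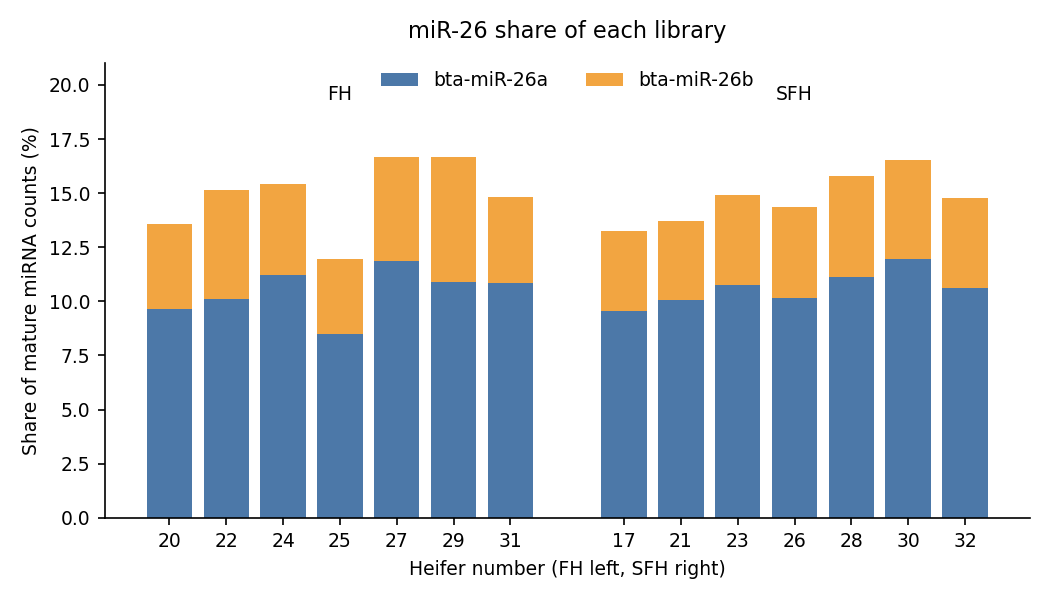
Stacked bars give the share (%) of each heifer's mature miRNA counts taken by bta-miR-26a and by bta-miR-26b, with the 7 FH heifers on the left and the 7 SFH heifers on the right. The summed height runs from 11.9% in FH heifer 25 to 16.7% in FH heifer 29, and bta-miR-26c adds nothing because its count was 0.

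The order of levels set bta-miR-26a apart from the other abundant miRNAs and left bta-miR-26b among close neighbours. bta-miR-26a ranked 1st in 13 of the 14 heifers and 2nd in FH heifer 25, behind bta-let-7a-5p. The next in order of mean share were the growth-restraining bta-let-7a-5p (6.73 ± 1.52%), the lymphocyte miRNA bta-miR-150 (6.54 ± 1.79%), bta-miR-21-5p, which is induced on immune activation (5.81 ± 1.75%), and bta-let-7f (5.62 ± 0.793%, SD over 14 heifers). bta-miR-26b ranked between 5 and 9 in a heifer and 8 by mean share. bta-miR-191, just above it with 4.39 ± 0.671%, exceeded it in 8 heifers, and bta-miR-30d, just below it with 4.06 ± 0.663%, exceeded it in 7 heifers. The order of these 3 miRNAs thus changed from heifer to heifer, and no difference between them was tested. bta-let-7g lay above bta-miR-26b in 13 of 14 heifers. Mature miRNAs are nearly equal in length, so counts were not divided by length, and the part that adapter ligation has in the order of levels was not tested.

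Neither paralogue passed the thresholds between the groups. For bta-miR-26a, TMM-normalized CPM ranged from 87585 to 133565 in FH (median 104982) and from 90693 to 120818 in SFH (median 101964). For bta-miR-26b it ranged from 35627 to 70582 in FH (median 41566) and from 34745 to 46322 in SFH (median 39657). Both pairs of ranges overlapped, with 5 SFH heifers below the FH median for bta-miR-26a and 4 for bta-miR-26b. In edgeR's quasi-likelihood F-test the log2 fold change (SFH relative to FH) of bta-miR-26a was −0.05 (standard error 0.13, 95% interval −0.32 to 0.21), and it was 0.02 when libraries were scaled by their totals. For bta-miR-26b it was −0.19 (standard error 0.16, 95% interval −0.51 to 0.14), and it stayed below 0 with every scaling tried. The Benjamini-Hochberg adjusted p-values of the same test over the 341 miRNAs were 0.977 and 0.947. The interval of bta-miR-26a excludes a change of 0.5 on the log2 scale in either direction, and that of bta-miR-26b reaches just past −0.5. Exact two-sided permutation tests over 3432 arrangements of the heifers gave p = 0.666 for bta-miR-26a and p = 0.311 for bta-miR-26b (n = 7 per group, adjusted over 341 miRNAs 0.946 and 0.790).

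Against these 0 of 2 members, edgeR called 13 of the 341 miRNAs, or 3.81%, with the study's thresholds. These are an unadjusted p of 0.05 or less together with a log2 fold change of 0.5 or more in either direction. The study applied them in DESeq2 1.26.0 and reported 16 miRNAs, and DESeq2 1.42.0 also gave 16 of 341 here. Only the counts were set side by side, and the miRNAs called were not compared by name. In edgeR, 5.87% had an unadjusted p of at most 0.05 at any fold change. An adjusted p of at most 0.05 was reached by 0% in edgeR, where DESeq2 gave 2 miRNAs. The median log2 fold change over the 341 miRNAs was 0.06. Without FH heifer 29 the log2 fold change of bta-miR-26b was −0.08. The TMM factor of that library, 0.817, was the lowest of the 14 (range of the others 0.963 to 1.08).

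**Figure D2:**
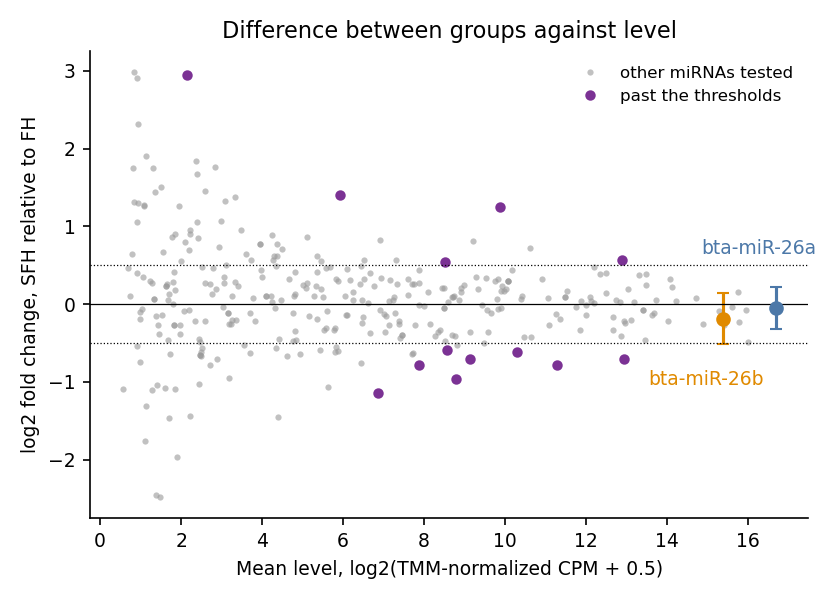
Each point is 1 of the 341 miRNAs tested, with its mean level over 14 heifers on the horizontal axis, log2(TMM-normalized CPM + 0.5), and its log2 fold change, SFH relative to FH, on the vertical axis. The bars on bta-miR-26a and bta-miR-26b are 95% intervals and both include 0, dotted lines mark a log2 fold change of 0.5 in either direction, and the 13 miRNAs past the thresholds lie at lower levels than either paralogue.

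The ratio of the paralogues needs no scaling between libraries, because both counts come from the same library. bta-miR-26a exceeded bta-miR-26b in all 14 heifers. The ratio in FH ranged from 1.89 in heifer 29 to 2.73 in heifer 31, with a median of 2.46, and in SFH from 2.40 in heifer 28 to 2.78 in heifer 21, with a median of 2.58. FH heifers 22 and 29, at 2.004 and 1.89, lay below every SFH heifer, and the other 5 FH heifers lay within the SFH range. On the log2 scale the FH and SFH mean ratios were 1.24 ± 0.20 and 1.35 ± 0.07 (SD, 7 heifers each). SFH exceeded FH by 0.11 (95% interval −0.06 to 0.29), which did not pass the two-sided exact permutation test (p = 0.216 with 7 heifers per group). It was 0.06 without FH heifer 29 and 0.08 without FH heifer 22. The wider spread of the ratio in FH was not tested.

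**Figure D3:**
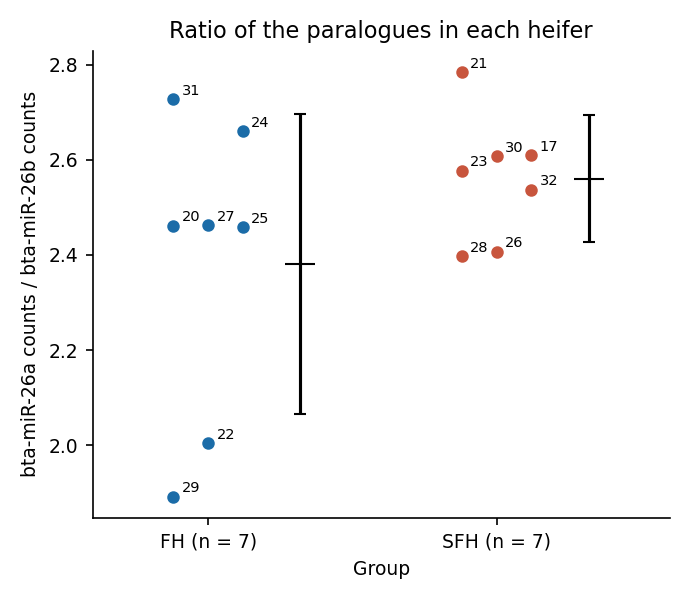
Each point is the ratio of bta-miR-26a counts to bta-miR-26b counts in 1 heifer, labelled with the heifer number, and the bars give the group mean and SD (n = 7 per group). FH heifers 22 and 29 lie at 2.004 and 1.89, below the lowest SFH ratio of 2.40.

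bta-miR-26a varied little between heifers. Its SD within groups, on log2(TMM-normalized CPM + 0.5), was 0.179, the 2nd lowest of the 341 miRNAs after bta-miR-23a (0.168), compared with a median of 0.912 over all of them. bta-miR-26b had an SD of 0.265 and ranked 19 of 341. Low miRNAs vary more for counting reasons alone, and among the 20 most abundant miRNAs the median SD was 0.289, with bta-miR-26a in 2nd place and bta-miR-26b in 8th. Of the 4 miRNAs next to bta-miR-26a in level, bta-let-7f had an SD of 0.256, bta-let-7a-5p 0.291, bta-miR-150 0.460 and bta-miR-21-5p 0.463. Other abundant miRNAs came close to bta-miR-26a, with 0.184 for bta-let-7i, 0.187 for bta-miR-93 and 0.195 for bta-let-7g. The scaling moved these values, since with library totals only the SD was 0.136 for bta-miR-26a, the lowest of the 341, and 0.204 for bta-miR-26b, in 8th place. These SDs and their order are a description, and no test was made of them.

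**Figure D4:**
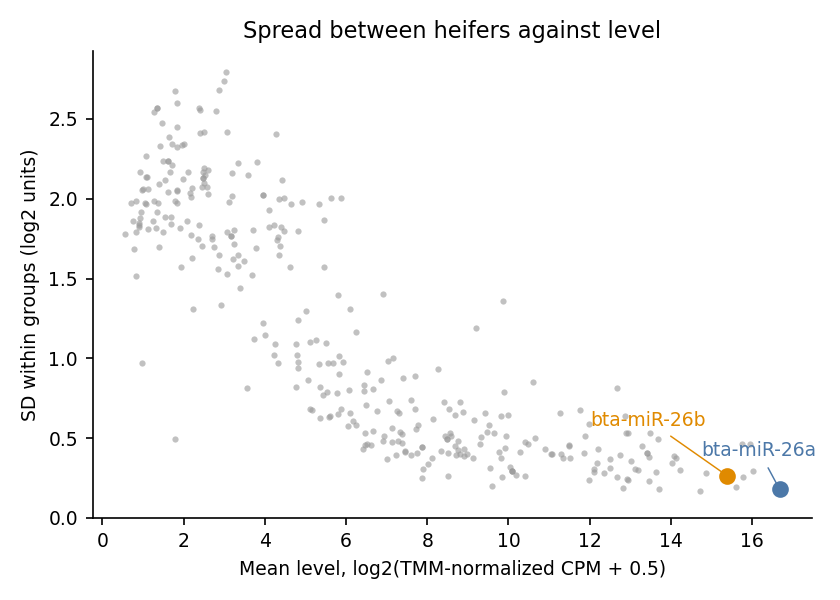
Each point is 1 of the 341 miRNAs tested, with its mean level on the horizontal axis, log2(TMM-normalized CPM + 0.5), and its SD within groups over 14 heifers on the vertical axis, in log2 units. bta-miR-26a lies at the right-hand end with an SD of 0.179 and bta-miR-26b at 0.265, against a median of 0.912 over all points.

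The paralogues moved together from heifer to heifer, although they come from different host genes. Over the 14 heifers, Pearson's r between their log2(TMM-normalized CPM + 0.5) was 0.83 and Spearman's rho was 0.74. FH heifer 29 was highest in both on this TMM-normalized scale, and r was 0.74 without it. By share of counts it was highest in bta-miR-26b (5.77%) but not in bta-miR-26a (10.9%, against 11.9% in SFH heifer 30). Without FH heifers 27 and 29, the farthest from the median of bta-miR-26a, r was 0.65 over 12 heifers. Within FH, r was 0.82 and rho 0.82, and within SFH, r was 0.89 and rho 0.89 (7 heifers each). With library totals only, r was 0.63 and rho 0.70. The values of a library share its total, its scaling factor and the other miRNAs that compete for reads, and bta-miR-26a and bta-miR-26b differ by so few bases that reads of one could have been counted on the other, so these correlations are given without a p-value.

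**Figure D5:**
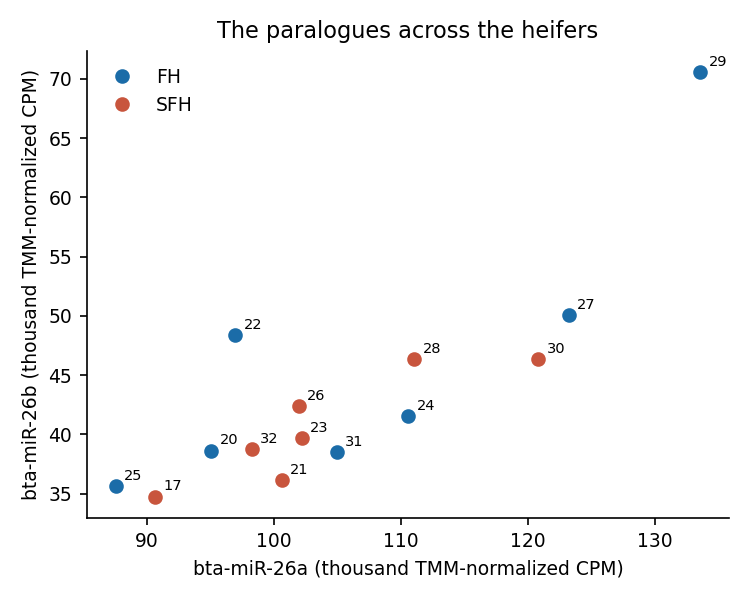
Each point is 1 heifer, labelled with its number, with bta-miR-26a on the horizontal axis and bta-miR-26b on the vertical axis, both in units of 1000 TMM-normalized CPM, FH in blue and SFH in red. FH heifer 29 is highest in both miRNAs on this scale, though not in bta-miR-26a by share of counts, and r was 0.74 without it.

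By Spearman's rho over the 14 heifers, the miRNAs most like bta-miR-26a were bta-miR-378 (rho = 0.81, r = 0.69), bta-miR-331-5p (rho = 0.76, r = 0.67), bta-miR-378c (rho = 0.75, r = 0.68), bta-miR-26b, which ranked 4 of 340, and bta-let-7g (rho = 0.66, r = 0.63). Those most like bta-miR-26b were bta-let-7g (rho = 0.79, r = 0.72), bta-miR-363 (rho = 0.77, r = 0.49), bta-miR-378 (rho = 0.76, r = 0.49), bta-miR-155, which is induced in activated lymphocytes (rho = 0.75, r = 0.76), and bta-miR-26a. bta-miR-378 and bta-let-7g were thus on both lists. The lowest rho with bta-miR-26a were those of bta-miR-326 (rho = −0.70, r = −0.60) and bta-miR-2320-3p (rho = −0.62, r = −0.51), of which the latter had no count in at least 1 heifer. When libraries were scaled by their totals, the rho of bta-miR-378 with bta-miR-26b fell from 0.76 to 0.51. That of bta-miR-363 with bta-miR-26b fell from 0.77 to 0.57 and that of bta-let-7g from 0.79 to 0.67, while that of bta-miR-155 stayed at 0.75. With bta-miR-26a, the rho of bta-let-7g fell from 0.66 to 0.53, that of bta-miR-326 went from −0.70 to −0.56 and that of bta-miR-2320-3p from −0.62 to −0.76. The miRNAs named were picked as the extremes of 340 values of rho over 14 heifers.

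The level of the family was read beside miRNAs that mark blood cell types and beside let-7, which is tied to miR-26 through *LIN28B*. These libraries do not measure *LIN28B*, and the link was not tested here. The 5 lymphocyte miRNAs, bta-miR-150 among them, took 7.34% to 12.9% of the counts in FH and 6.61% to 14.4% in SFH, and the 3 haematopoietic and myeloid miRNAs, bta-miR-223 and both arms of bta-miR-142, took 2.13% to 3.52% in FH and 2.33% to 4.50% in SFH. Erythroid miRNAs took 0.157% to 0.371% in FH and 0.146% to 0.923% in SFH, with bta-miR-144 at 0 in every heifer, and the platelet miRNAs, both arms of bta-miR-126, at most 0.00683%. The tissue label, PWBC, was therefore matched by leukocyte miRNAs at high counts as lists, but not by every member. Mean shares of leukocyte members ran from 0.0148% for bta-miR-142-3p and 0.202% for bta-miR-181b to 6.54% for bta-miR-150. The erythroid bta-miR-451 and bta-miR-486, at 0.190% and 0.108%, lay above bta-miR-142-3p. Of the 12 marker miRNAs tested, 0 passed the thresholds of edgeR's quasi-likelihood test, which 3.81% of all miRNAs tested passed, so this count says nothing particular about them. The let-7 miRNAs took 21.0% to 28.0% of the counts in FH and 18.8% to 21.9% in SFH, ranges that overlapped. Of the 9 tested, beside the same 3.81%, 1 passed and was lower in SFH. This was bta-let-7b (log2 fold change −0.71, standard error 0.25, Benjamini-Hochberg adjusted p = 0.415), and it no longer passed without FH heifer 25 (−0.40). bta-let-7a-5p missed the fold change threshold only (−0.49, standard error 0.16, edgeR unadjusted p = 0.0065, adjusted p = 0.415). bta-let-7d had −0.46 (edgeR unadjusted p = 0.027), and bta-let-7i alone was higher in SFH (0.06). Exact permutation tests gave unadjusted p = 0.0052 for bta-let-7a-5p, 0.063 for bta-let-7b and 0.076 for bta-let-7d (adjusted 0.255, 0.702 and 0.702). The paper, which used DESeq2, reports bta-let-7a-5p as downregulated in SFH and also counts bta-let-7b among its differentially expressed miRNAs. The median log2 fold change of the let-7 list was −0.41, beside 0.06 over all miRNAs tested and −0.05 and −0.19 for bta-miR-26a and bta-miR-26b.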

How the data were processed

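PWBC small RNA from 14 heifers (7 FH, 7 SFH) was prepared with a NEXTflex kit and sequenced as single-end reads. The authors trimmed adapters and end bases with Cutadapt, aligned reads with miRDeep2 to ARS-UCD1.2 and to miRBase miRNAs without seed mismatches, and deposited raw read counts per mature miRNA and precursor, without normalization. The authors also deposited CPM of 341 miRNAs, computed with edgeR 3.28.1 per the labels and methods. Each deposited value was the count as a part of that heifer's total over these 341 miRNAs.

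For each mature name, the entry with the highest total was kept. Totals were 1754971 to 5468341 counts per heifer. miRNAs with at least 1 CPM in at least 7 heifers (341) were fitted with edgeR 4.0.16 in R 4.3.3, using TMM, the quasi-likelihood F-test, group as the only term, and Benjamini-Hochberg adjustment. A miRNA passed with an unadjusted p of 0.05 or less and a log2 fold change of 0.5 or more in either direction, the limits of the study's methods. Exact permutation tests used log2(TMM-normalized CPM + 0.5). The p-values measure the spread between heifers, 1 library each. Alternatives were DESeq2 1.42.0, other scalings, filters, entries, denominators and pseudocounts, a covariate, and each heifer left out. Tests were tested on simulated data. Python 3.11.15, numpy 2.4.6, pandas 2.3.3, scipy 1.17.1 and matplotlib 3.10.9 were used.

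Members and lists were chosen with earlier results of these data known. The miRNAs named are the members, the 4 next most abundant, the 5 with the highest rho with each paralogue, the 2 with the lowest rho with bta-miR-26a, and the marker and let-7 lists. bta-miR-191, bta-miR-30d, bta-miR-23a and bta-miR-93 were named after their values were seen. So were bta-let-7g as a neighbour in level and in spread, and bta-let-7i as a neighbour in spread.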

Additional observations from a re-analysis of the deposited data

Results flagged for a closer look

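In the FH group, heifer 29 stood far from the other 6 in a pair of measures by Dixon's test. Its bta-miR-26b level was 70582 TMM-normalized CPM, with the next highest FH heifer at 50041. Its TMM factor was 0.817, with the next lowest at 0.963. Before that factor was applied, its bta-miR-26b share of 5.77% did not stand apart by the same test (next highest 5.03%). Dixon's test was run on 7 measures in each group, 14 checks in all, and chance flags about 1 in 20. The TMM-normalized level is the CPM of the library, 57695 for bta-miR-26b in this heifer, divided by that factor. The level and the factor are therefore not separate observations. Why the factor was low was not tested.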

How the results depend on the processing

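The log2 fold change of bta-miR-26a turned from −0.051 to 0.023 with library totals only, to 0.018 without FH heifer 27 and to 0.0059 without SFH heifer 32, and ranged from −0.072 to 0.018 with 1 heifer left out. The cause was not tested. It was farthest from 0, at −0.13, with every precursor entry kept. That of bta-miR-26b stayed below 0 under all 20 alternatives (−0.21 to −0.08 with 1 heifer left out, −0.26 with every precursor entry kept), and the difference in log2 ratio stayed above 0 under all 16 (0.06 to 0.15 with 1 heifer left out). None of these, nor the exact tests with a pseudocount of 1, passed its threshold. The number of miRNAs past the thresholds was 13 in edgeR and 16 with DESeq2. In edgeR it was 126 without a filter on low counts and 20 with every precursor entry kept. It was 11 to 21 with 1 heifer left out, with 21 without FH heifer 24 and 20 without FH heifer 27. Over the total of all precursor entries, in which repeated names count several times, the mean share was 7.57% for bta-miR-26a and 3.09% for bta-miR-26b, in place of 10.5% and 4.30%. The main total still holds different names with the same values. An example is bta-miR-23b-3p and bta-miR-10174-3p, each with a mean of 11321 CPM. Alternatives on the spread and the correlation were chosen after seeing the data. With library totals only, the SD was 0.136 for bta-miR-26a and 0.204 for bta-miR-26b, and Spearman's rho of the pair was 0.89 in SFH alone. bta-miR-26c, at 0 in every heifer, gave no value under any alternative. Depth limits only bta-miR-26c, since the paralogues had at least 71490 counts in every heifer. No paired analysis was possible because the sources name no pairs of heifers across the groups.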
